A study of Homo sapiens with 3 samples.

Results

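The genes described here are 10 imprinted genes, NNAT, DLK1, MEG3, H19, IGF2, PEG3, PEG10, MEST, NDN and PLAGL1, chosen by name, in part because NNAT was already known to be far lower in NGP than in IMR-32 on these arrays. A probe set, the group of short probes that the array reads as 1 value, was used where its annotation names that gene alone, which gave 22 probe sets for 8 of the 10 genes, among 41091 probe sets and 19775 genes in all. H19 and IGF2 had no such probe set, and their 5 shared probe sets are given separately. RNA was measured in 2 neuroblastoma cell lines, NGP and IMR-32, and in a reference pool made from 16 cancer cell lines, with no treatment given in the labels and each on 1 Affymetrix U133 Plus 2.0 array. NGP and IMR-32 are known as lines with amplified MYCN, each is a single line grown in its own culture medium, and line and medium cannot be told apart. The lines making up the pool are not named in the sources used here.

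Imprinted genes are read from 1 parental copy only, because the copies keep different DNA methylation marks from egg and sperm. Most of the genes named here are expressed from the paternal copy, and H19 and MEG3, which give long noncoding RNAs, from the maternal copy. Many act on growth before birth, and several are expressed in developing neural crest derivatives, brain or adrenal medulla. The arrays measure the summed RNA of both copies, so neither the expressed copy nor methylation can be read from them.

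Values are MAS5 signals on a linear scale, with array medians of 98.8 in NGP, 89.9 in IMR-32 and 119 in the pool, and a signal below the median of its array is called dim. Ratios are log2 ratios without a pseudocount, and the ratio of a gene is the median over its probe sets. Genes within the top or bottom 7% of the ratios of a comparison were called over- or underexpressed. The study set this rule for each line over the pool, and its use for NGP over IMR-32 and for medians over probe sets is an addition made here. It takes 1384 genes or 7% of all genes tested at each end. The cut-offs were 1.95 and -1.84 for NGP over IMR-32, 1.84 and -2.88 for NGP over the pool, and 1.68 and -2.83 for IMR-32 over the pool. The median ratio of all genes was 0.02, -0.22 and -0.23 in these comparisons. With 1 array per sample nothing can be tested and no p-value is given. The only spread at hand was that between probe sets of the same gene, with a standard deviation of 1.28 for NGP over IMR-32, 1.41 for NGP over the pool and 1.31 for IMR-32 over the pool. The 3 comparisons share arrays and are not independent of each other.

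Markers of sympathoadrenal cells, the lineage of neuroblastoma, were overexpressed over the pool for 9 of 11 measured genes in NGP and 6 of 11 in IMR-32. The share over all genes was 7% in each line. All 11 lay above the pool in NGP. In IMR-32, 4 lay below it, TH (-1.40), GATA2 (-1.34), DBH (-0.33) and CHGB (-0.01). The summed signal of the 11 genes was 98766 in NGP, 40332 in IMR-32 and 15114 in the pool. The epithelial markers were underexpressed over the pool for 7 of 7 genes in NGP and 6 of 7 in IMR-32, against 7% of all genes. Their summed signals were 331 in NGP, 462 in IMR-32 and 67643 in the pool. No marker of these lists had a signal of 0. The summed signals in NGP, IMR-32 and the pool were 6441, 2232 and 11763 for mesenchymal, 718, 408 and 2848 for haematopoietic and 197, 113 and 2471 for Schwann cell markers. In the pool, LCP1 alone gave 2127 of the haematopoietic sum and ERBB3 alone gave 2439 of the Schwann sum. The haematopoietic and Schwann sums of the pool thus describe mainly single genes. In NGP the haematopoietic sum was spread over several genes, such as CD79A (241) and LCP1 (203). The Schwann markers SOX10 and S100B were below the median on every array. Markers also differed between the lines, with 11 of 11 sympathoadrenal and 7 of 7 mesenchymal genes higher in NGP than in IMR-32, against 50.8% of all genes. Of these, 5 and 2 were overexpressed, against 7% of all genes. Some mesenchymal differences were small or from dim signals, such as THY1 (0.09) and COL1A2 (0.50, at most 60.2 in NGP and 67.7 in IMR-32). These differences in cell type markers stand beside every ratio given below, and their part in those ratios was not tested.

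The members did not move together. Set directly against IMR-32, NGP was lower for NNAT, MEST and PLAGL1 (3 of 8 underexpressed, against 7% of all genes) and higher for PEG10 (1 of 8 overexpressed, against 7%), with DLK1 and MEG3 above 0 but inside the cut-off and PEG3 and NDN near 0. Over the pool, NGP was underexpressed for NNAT, MEST, NDN and PLAGL1 (4 of 8, against 7%) and overexpressed for DLK1 (1 of 8, against 7%). In IMR-32 over the pool, NNAT and DLK1 were overexpressed (2 of 8, against 7%) and NDN was underexpressed (1 of 8, against 7%). The median ratio of the 8 genes was 0.21 for NGP over IMR-32, -3.60 for NGP over the pool and -0.73 for IMR-32 over the pool. The list was chosen with values of this kind in view, so these counts are a description of the chosen genes.

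**Figure D1:**
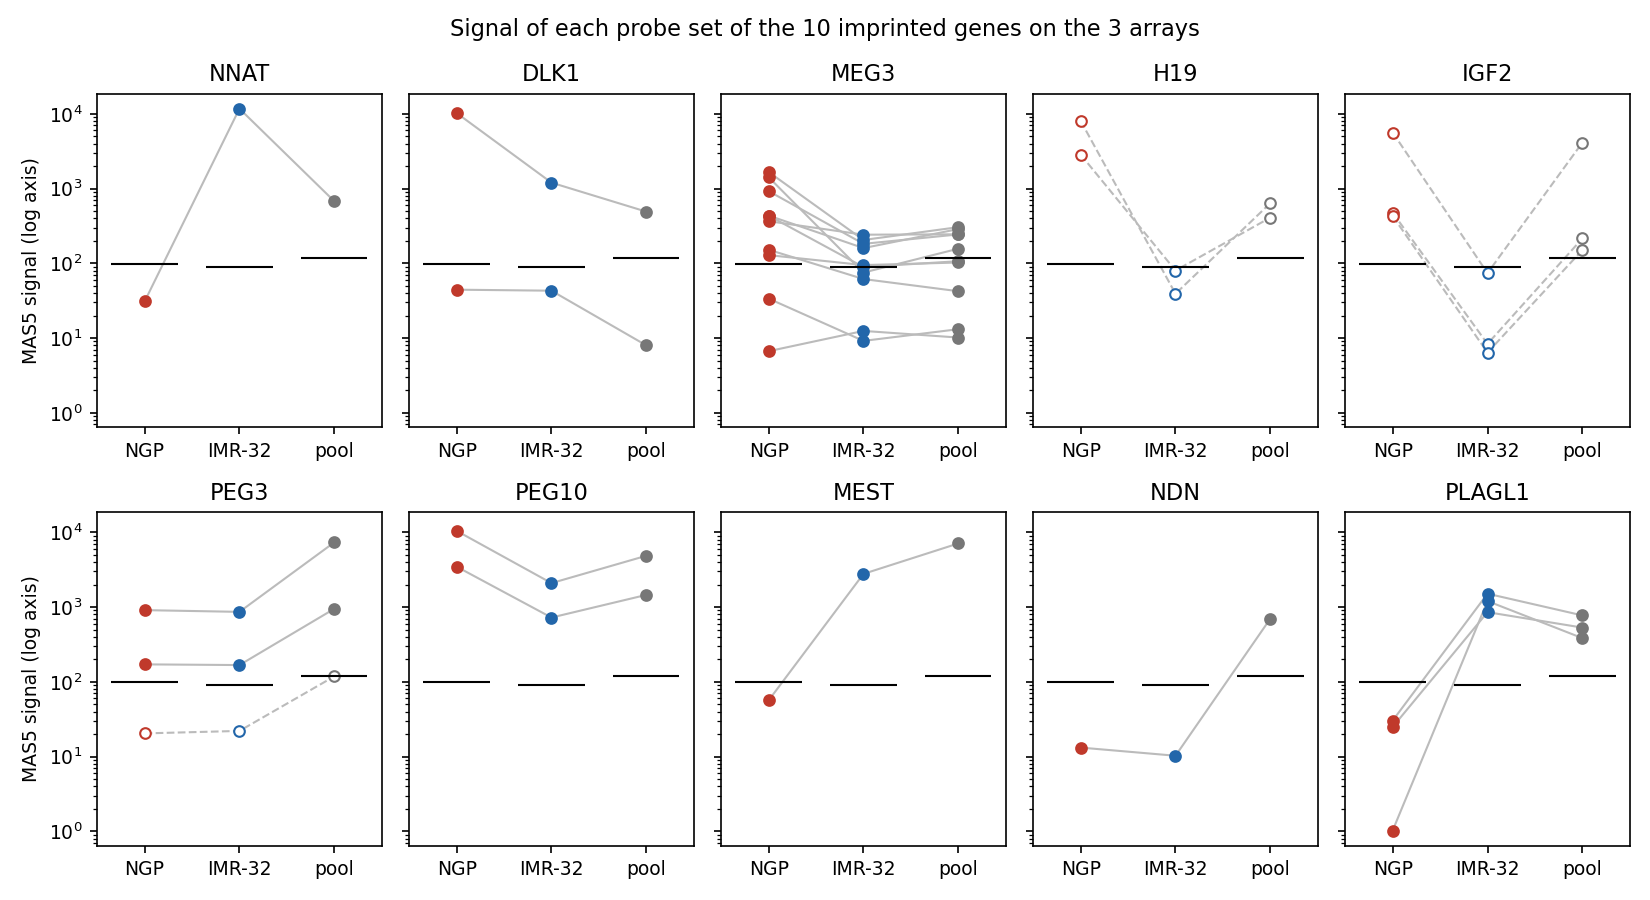
MAS5 signal (log axis) of each probe set of the 10 imprinted genes in NGP (red), IMR-32 (blue) and the pool (grey), with filled circles for probe sets that name the gene alone, open circles and dashed lines for those that name another gene too, and a short black line at the median of each array. NNAT, MEST and PLAGL1 lie under the median line in NGP alone, H19 and IGF2 in IMR-32 alone, and NDN in both lines.

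NNAT, which encodes neuronatin, a small membrane protein of the endoplasmic reticulum in developing neurons and endocrine cells, differed more between the lines than any other member. Its 1 probe set had a signal of 30.9 in NGP, 11704 in IMR-32 and 677 in the pool. NGP was thus dim, IMR-32 was bright, and the pool lay between them. The log2 ratio was -8.57 for NGP over IMR-32 (379-fold lower), which was rank 4 from the lowest of 19775 genes. It was -4.45 for NGP over the pool (21.9-fold lower) and 4.11 for IMR-32 over the pool (17.3-fold higher, rank 52 from the highest). This gene was chosen for the difference between NGP and IMR-32. Because the NGP signal was dim, the size of the ratio depends on background, and with every signal below its array median raised to that median NGP was still 118-fold lower than IMR-32 (-6.89). In bulk RNA, fewer cells with the transcript and less transcript per cell cannot be told apart. BLCAP, within whose gene NNAT lies, had a log2 ratio of -1.29 for NGP over IMR-32, inside the cut-off, with signals of 1223 in NGP, 2990 in IMR-32 and 3186 in the pool. With dim signals raised to the median this ratio was unchanged, but the cut-off was then -0.77 and BLCAP was past it. Over the pool NGP was at -1.38, also past the cut-off of that setting (-1.35).

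PLAGL1, a zinc finger transcription factor that restrains the cell cycle and acts on other imprinted genes, was low in NGP on each of its 3 probe sets. Their signals were 1.03, 24.9 and 30.3 in NGP, 1202, 854 and 1509 in IMR-32, and 384, 531 and 773 in the pool. All 3 NGP values were dim and all 6 others were bright. These are probe sets of 1 gene read on 1 array per sample, not replicates. The gene ratio was -5.64 for NGP over IMR-32 (49.8-fold lower), with probe sets from -10.19 to -5.10, and -4.67 for NGP over the pool (25.5-fold lower). IMR-32 was 1.95-fold higher than the pool (0.97), inside the cut-off. After raising dim signals to the array median, NGP was 12.2-fold lower than IMR-32 (-3.60). IMR-32 over the pool was unchanged by that floor (0.97), but was then past the upper cut-off of that setting (0.91). HYMAI, a noncoding RNA from the same locus, had signals of 5.82 in NGP, 152 in IMR-32 and 106 in the pool on its 1 probe set, and a log2 ratio of -4.70 for NGP over IMR-32. The HYMAI probe set was dim in the pool as well as in NGP, and with dim signals raised to the median its ratio was -0.62, inside the cut-off, so that its call was lost where that of PLAGL1 was not.

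MEST, an enzyme-like protein of the alpha/beta hydrolase fold that is abundant in embryonic mesoderm, was the third member underexpressed in NGP on both comparisons. Its 1 probe set had a signal of 56.5 in NGP, 2778 in IMR-32 and 7089 in the pool. The log2 ratio was -5.62 for NGP over IMR-32 (49.2-fold lower) and -6.97 for NGP over the pool (126-fold lower, rank 65 from the lowest). IMR-32 was 2.55-fold lower than the pool (-1.35), inside the cut-off. NGP was therefore far below both of the other arrays, while IMR-32 was somewhat below the pool. The neighbouring genes COPG2, a coat protein of Golgi vesicles, and CPA4, a carboxypeptidase, had ratios of -0.50 and -1.28 for NGP over IMR-32, with COPG2 at 0.42 on its bright probe set and -1.43 on a dim one, and the transcription factor KLF14 had -1.40 from dim signals, all inside the cut-off. With dim signals raised to the median, NGP was 28.1-fold lower than IMR-32 for MEST (-4.81).

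The start regions of MEST and PLAGL1, the members low in NGP alone for which a promoter sequence was at hand, are shown because they hold the letters TGCCGC, which the imprint-keeping protein Zfp57 binds in mouse when they are methylated. Capitals mark each TGCCGC, or its reverse complement GCGGCA, in a window from 250 bases before to 50 after the transcript start (RefSeq, GRCh38.p14, read on the strand of the gene). Both genes have 5 windows in the table, and the one with the most matches is given. The 2 matches of PLAGL1 lie close together, and the first 2 of the 3 in MEST overlap. HYMAI shares the PLAGL1 window.
MEST, chr7:130491835-130492134, + strand: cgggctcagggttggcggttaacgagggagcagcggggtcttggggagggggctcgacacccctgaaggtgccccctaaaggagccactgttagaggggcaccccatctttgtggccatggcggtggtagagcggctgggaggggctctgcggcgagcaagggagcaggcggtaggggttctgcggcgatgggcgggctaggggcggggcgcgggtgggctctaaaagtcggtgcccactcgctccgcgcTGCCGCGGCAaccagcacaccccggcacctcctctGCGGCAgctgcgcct
PLAGL1, chr6:144008210-144008509, - strand: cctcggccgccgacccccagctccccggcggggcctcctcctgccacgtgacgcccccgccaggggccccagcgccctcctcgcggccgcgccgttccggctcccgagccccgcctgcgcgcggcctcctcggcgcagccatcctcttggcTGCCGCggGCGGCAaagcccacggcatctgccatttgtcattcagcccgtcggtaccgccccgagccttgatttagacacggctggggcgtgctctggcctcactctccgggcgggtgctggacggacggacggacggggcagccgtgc
The PLAGL1 window holds 39 CG dinucleotides, a number reached by 8.71% of the 35116 windows of all genes, and the MEST window holds 25.

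DLK1, a transmembrane protein related to the Notch ligands that is known from neuroblastoma and the adrenal medulla, was the member highest over the pool in NGP. Its bright probe set had a signal of 10230 in NGP, 1199 in IMR-32 and 491 in the pool. A further probe set was dim on all 3 arrays, at 44.4, 43.0 and 7.99. On the bright probe set NGP was 8.53-fold higher than IMR-32 (3.09) and 20.8-fold higher than the pool (4.38), and IMR-32 was 2.44-fold higher than the pool (1.29). On the dim one NGP and IMR-32 were alike (0.05), so that the gene ratio for NGP over IMR-32, the median of both, was 1.57, inside the cut-off. Over the pool DLK1 was overexpressed in NGP (3.43, rank 245 from the highest) and in IMR-32 (1.86). The IMR-32 call rests on the dim probe set, since without dim probe sets the ratio was 1.29 and inside the cut-off, and NGP over IMR-32 was then 3.09 and past it.

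MEG3, the maternally expressed noncoding RNA downstream of DLK1, was higher in NGP than in IMR-32 on 9 of its 10 probe sets. The brightest had signals of 1665 in NGP, 205 in IMR-32 and 305 in the pool, and a log2 ratio of 3.02 for NGP over IMR-32. The widest difference, 4.24, came from signals of 1418 in NGP, 75.1 in IMR-32 and 157 in the pool. The exception, at -0.90, was a probe set dim on all arrays. Its gene ratio was 1.66 for NGP over IMR-32 (3.16-fold higher) and 1.60 for NGP over the pool (3.03-fold higher), both inside the cut-offs, and -0.34 for IMR-32 over the pool. The ratios of NGP were little larger than the spread between probe sets of a gene, and with dim signals raised to the median that over the pool was 0.59. Both MEG3 calls changed with the probe sets used, and without dim probe sets the gene was overexpressed in NGP over IMR-32 (1.86) and over the pool (1.88). The MEG3 window farthest upstream of 3 overlapping ones is shown as that of the member with the most probe sets, with its single match in capitals.
MEG3, chr14:100825858-100826157, + strand: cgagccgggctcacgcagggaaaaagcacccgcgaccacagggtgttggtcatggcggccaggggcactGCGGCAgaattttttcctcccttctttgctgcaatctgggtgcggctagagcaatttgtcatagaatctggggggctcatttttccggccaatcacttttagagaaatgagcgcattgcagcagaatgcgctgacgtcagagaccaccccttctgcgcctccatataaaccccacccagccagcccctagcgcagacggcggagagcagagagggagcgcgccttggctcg
It holds 19 CG dinucleotides, a number reached by 42.9% of all windows. DIO3, the thyroid hormone inactivating deiodinase at the other end of the same imprinted locus, had signals of 5.45 in NGP, 110 in IMR-32 and 162 in the pool. Its log2 ratio for NGP over IMR-32 was -4.33, past the cut-off, but only -0.15 and inside it with dim signals raised to the array median.

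PEG10, which encodes a protein derived from a retrotransposon and needed for the placenta, was the 1 measured member overexpressed in NGP against IMR-32. Its 2 probe sets had signals of 10444 and 3467 in NGP, 2089 and 723 in IMR-32, and 4850 and 1453 in the pool. All were bright, and on both the order was NGP, then the pool, then IMR-32. The log2 ratio was 2.29 for NGP over IMR-32 (4.90-fold higher), with probe sets at 2.32 and 2.26. It was 1.18 for NGP over the pool and -1.11 for IMR-32 over the pool, both inside the cut-offs. Of the neighbouring imprinted genes, SGCE, a sarcoglycan gene that starts beside PEG10, had a ratio of -0.06 for NGP over IMR-32, with signals of 1180 in NGP, 1230 in IMR-32 and 1017 in the pool. PPP1R9A, which encodes the actin-binding protein neurabin, was overexpressed at 4.29, with signals of 765 in NGP, 44.6 in IMR-32 and 249 in the pool on its brightest probe set. With dim signals raised to the median, the PPP1R9A ratio over its 4 probe sets was 0.43 and no longer called. On its brightest probe set alone, without that floor, it was 4.10 and past the cut-off, with a dim signal in IMR-32. TFPI2, a protease inhibitor, was dim in both lines (22.4 in NGP and 27.3 in IMR-32 on one probe set, against 561 in the pool) and underexpressed over the pool in each (-6.18 in NGP and -6.42 in IMR-32).

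**Figure D2:**
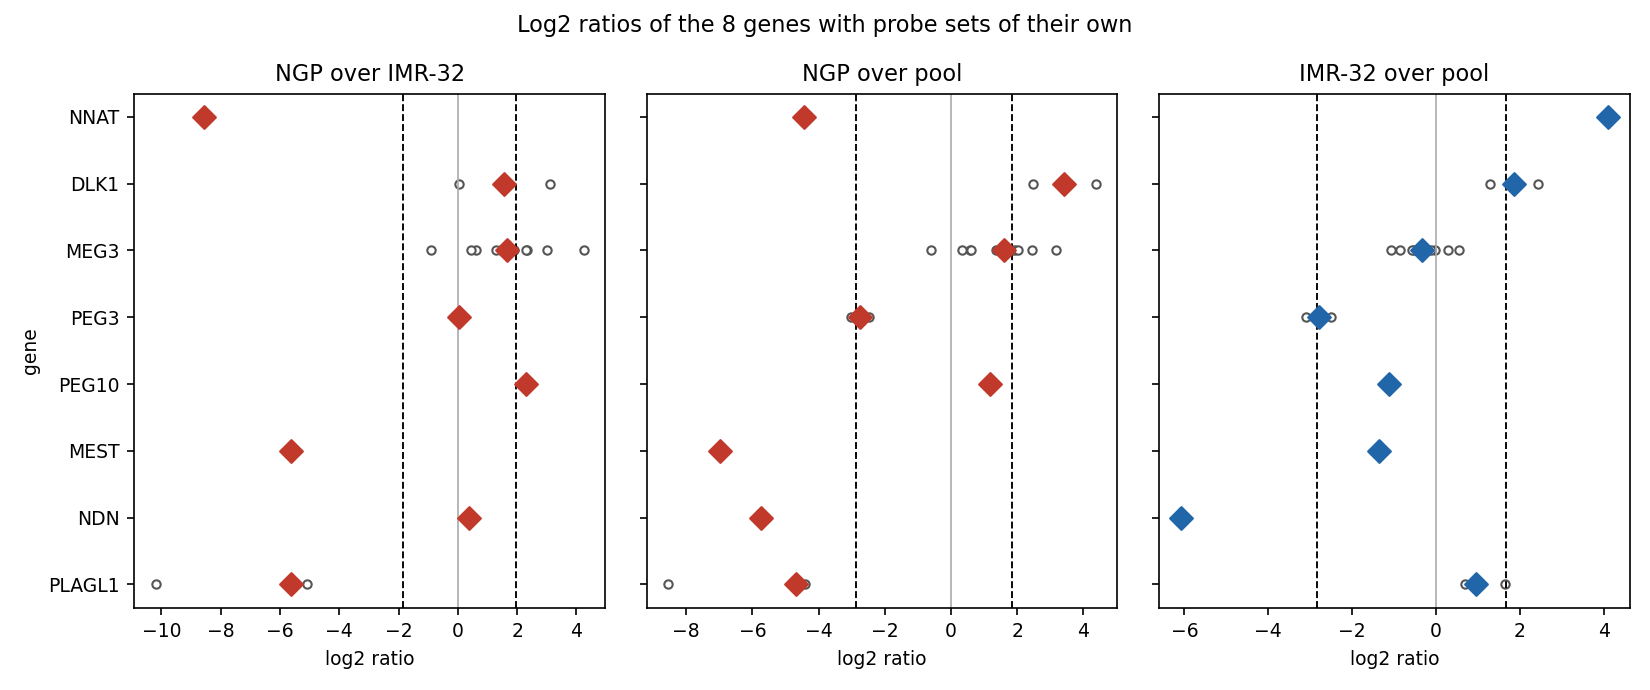
Log2 ratios (x-axis) of the 8 members with probe sets of their own (y-axis) for NGP over IMR-32, NGP over the pool and IMR-32 over the pool, with a diamond for the gene, open circles for its probe sets and dashed lines at the cut-offs. NNAT, MEST and PLAGL1 lie left of the lower cut-off of -1.84 for NGP over IMR-32, PEG10 lies right of the upper cut-off of 1.95, and NDN lies left of the lower cut-off in both comparisons with the pool.

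NDN, which encodes necdin, a protein of the MAGE family that acts in postmitotic neurons and is lost in Prader-Willi syndrome, was near the floor of both neuroblastoma arrays. Its 1 probe set had a signal of 13.2 in NGP, 10.3 in IMR-32 and 699 in the pool. The log2 ratio was -5.73 for NGP over the pool (53.0-fold lower) and -6.09 for IMR-32 over the pool (68.2-fold lower, rank 116 from the lowest). Between the lines the ratio was 0.36 from dim signals, so no order of the lines can be read from it. With dim signals raised to the array medians, NGP was still 7.08-fold and IMR-32 7.77-fold lower than the pool. The NDN start region is given as that of the member low in both lines, with its match in capitals.
NDN, chr15:23687256-23687555, - strand: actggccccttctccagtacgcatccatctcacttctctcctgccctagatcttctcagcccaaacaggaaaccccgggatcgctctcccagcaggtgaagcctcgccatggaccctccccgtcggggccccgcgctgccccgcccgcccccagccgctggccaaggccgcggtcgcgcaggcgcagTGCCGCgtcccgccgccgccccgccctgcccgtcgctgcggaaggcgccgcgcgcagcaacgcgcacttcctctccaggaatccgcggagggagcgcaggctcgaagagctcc
This window holds 35 CG dinucleotides, a number reached by 14.1% of all windows. Of its neighbours, MKRN3, a ubiquitin ligase gene linked to the timing of puberty, had signals of 130 in NGP, 11.8 in IMR-32 and 108 in the pool, and was overexpressed in NGP over IMR-32 (3.46), a call lost with dim signals raised to the median (0.53). MAGEL2, another MAGE family gene, passed the same cut-off (3.37) from signals that were dim on all arrays. UBE3A, the ubiquitin ligase of Angelman syndrome, had a ratio of -0.02 for NGP over IMR-32.

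PEG3, a zinc finger protein linked to p53-mediated cell death, was alike in the lines and lower than in the pool. Its 2 probe sets had signals of 909 and 171 in NGP, 862 and 167 in IMR-32, and 7334 and 947 in the pool. All 6 values were bright, and both lines lay below the pool on each probe set. The log2 ratio was 0.05 for NGP over IMR-32, -2.74 for NGP over the pool (6.68-fold lower) and -2.79 for IMR-32 over the pool (6.94-fold lower). These were just inside the lower cut-offs of -2.88 and -2.83, at ranks 1539 and 1417 from the lowest where 1384 genes were called. PEG3 stayed inside under 7 of 12 alternatives for NGP and 6 of 12 for IMR-32. Under the others it was underexpressed over the pool, in both lines with quantile normalization, log2(signal + 32) and dim signals raised to the median. A probe set shared with ZIM2, whose gene overlaps PEG3, had dim signals of 20.4 in NGP, 22.0 in IMR-32 and 118 in the pool.

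H19 and IGF2 lie next to each other and compete for the same enhancers, H19 as a maternally expressed noncoding RNA and IGF2 as the gene of a paternally expressed fetal growth factor. The 2 probe sets naming H19 also name MIR675, a microRNA gene within H19, and the 3 naming IGF2 also name the read-through gene INS-IGF2. The H19 probe sets had signals of 8033 and 2844 in NGP, 39.2 and 80.0 in IMR-32, and 638 and 409 in the pool. The IGF2 probe sets had signals of 5614, 474 and 428 in NGP, 74.0, 8.36 and 6.40 in IMR-32, and 4109, 215 and 150 in the pool. On all 5 probe sets NGP was highest and IMR-32 was lowest and dim. The median log2 ratio was 6.42 for H19 and 6.07 for IGF2 for NGP over IMR-32, 3.23 and 1.14 for NGP over the pool, and -3.19 and -4.68 for IMR-32 over the pool. With shared probe sets added to every gene, both genes passed the upper cut-off for NGP over IMR-32 (1.92), both passed the lower one for IMR-32 over the pool (-2.84), and H19 passed the upper one for NGP over the pool (1.81). Transcripts of H19 and IGF2 cannot be told apart from MIR675 and INS-IGF2 on these probe sets. The H19 start region holds no TGCCGC and 6 CG dinucleotides, a number reached by 66.3% of all windows. IGF2R, the receptor that clears IGF2, had a ratio of -0.28 for NGP over IMR-32.

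Start regions were at hand for 5 of the 10 genes, and 4 of them, MEG3, MEST, NDN and PLAGL1, held TGCCGC in at least 1 window. Over all 27305 genes of the table this share was 19.5%. The shares of genes are not like for like, because the 5 members had 15 windows, while all 27305 genes had 35116. By windows it was 9 of 15 for the members, several of which overlap, and 16.7% of all windows. Among 34 other imprinted genes with a start region, 17 held a match. A match describes the letters of the window and no more, and the 4 members with a match included MEST and PLAGL1, low in NGP alone, NDN, low in both lines, and MEG3, not called in any comparison.

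Of the 45 other imprinted genes listed for comparison, 40 were measured, and 9 of these were dim on all 3 arrays. In NGP over IMR-32, 3 of the 40 were overexpressed and 6 were underexpressed, against 7% of all genes in each direction. The corresponding counts were 3 and 7 for NGP over the pool, and 2 and 3 for IMR-32 over the pool. The median ratio of the list was -0.04 for NGP over IMR-32, -0.42 for NGP over the pool and -0.17 for IMR-32 over the pool, beside 0.02, -0.22 and -0.23 for all genes.

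Beside the genes already named, DIRAS3, a small GTPase that restrains growth, was underexpressed in NGP against IMR-32 (-2.25), with signals of 120 in NGP, 569 in IMR-32 and 83.5 in the pool, and overexpressed in IMR-32 over the pool (2.77). OSBPL5, an oxysterol-binding protein, lay below the cut-off for NGP over IMR-32 as well (-2.07), from probe-set ratios that stood apart, -3.26 and, on the brighter one, -0.87, which is inside it. NAP1L5, a nucleosome assembly protein, was high in both lines, with signals of 1763 in NGP, 1717 in IMR-32 and 227 in the pool on its brighter probe set. Its ratios over the pool were 3.06 in NGP and 3.00 in IMR-32, and the ratio between the lines was 0.06, less than the spread between probe sets. ZDBF2, a zinc finger gene, was overexpressed in NGP over the pool (2.24) from a signal of 169 in NGP, against dim signals of 79.0 in IMR-32 and 35.7 in the pool, and was not called with dim signals raised to the median (0.50). The further genes underexpressed over the pool in either line, bright in the pool and dim in both lines were WT1, ASCL2 and NLRP2. The transcription factors WT1 and ASCL2 had -2.24 and -3.48 in NGP and -3.43 and -2.78 in IMR-32. NLRP2 of the oocyte and embryo had -5.03 and -2.56. These are medians with a second probe set that was dim on all 3 arrays, and on the brightest probe set alone WT1 (-3.48 in NGP and -5.10 in IMR-32), ASCL2 (-5.74 and -5.21) and NLRP2 (-6.85 and -4.45) were underexpressed in both lines.

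**Figure D3:**
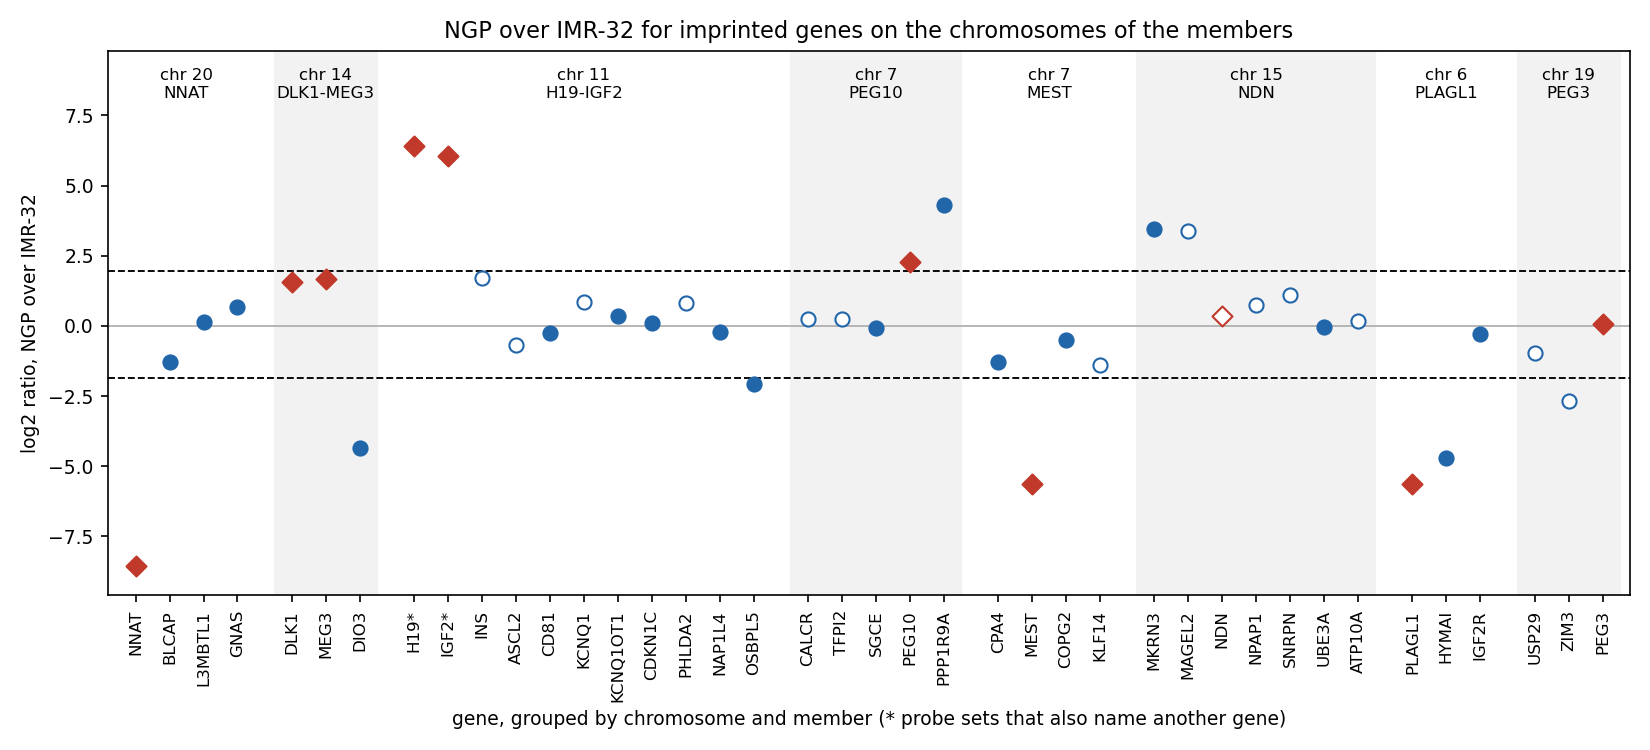
Log2 ratio of NGP over IMR-32 (y-axis) for the 10 members (red diamonds) and other listed imprinted genes (blue circles) grouped by chromosome (x-axis), with dashed lines at the cut-offs of 1.95 and -1.84, open symbols for genes dim in both lines, and an asterisk for genes read from probe sets that also name another gene. PLAGL1 and HYMAI lie below the lower cut-off (HYMAI not with dim signals raised to the array median), and NNAT and MEST lie far below their neighbours.

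Of 12 genes listed for the keeping of imprints, 10 were measured, and 1 of these was overexpressed in NGP over IMR-32, against 7% of all genes. DNMT1, the maintenance DNA methyltransferase, had a log2 ratio of 0.13 for NGP over IMR-32, with signals of 6788 in NGP, 6217 in IMR-32 and 4857 in the pool. UHRF1, which brings DNMT1 to replicating DNA, was at 0.41, ZNF445, a zinc finger protein of imprint control, at 0.13, TRIM28, the corepressor that such zinc finger proteins bind, at -0.79, the insulator protein CTCF at -0.55, ARID4B at -0.05, and the chromatin protein SMCHD1 at 0.23. None of these passed a cut-off of the setting used in the text in any of the 3 comparisons. With dim signals raised to the median, TRIM28 was past the lower cut-off for NGP over IMR-32 (-0.77). UHRF1, at 1.19 for NGP over the pool, was then past the upper one there (0.90). ZFP57 passed the upper cut-off for NGP over IMR-32 (2.69), but its signals were dim on all arrays, at 38.3 in NGP, 5.94 in IMR-32 and 14.4 in the pool. NLRP7 was underexpressed over the pool in NGP (-3.35) and IMR-32 (-3.51), also from dim signals, and KHDC3L, dim on all arrays too, was at -0.65 for NGP over IMR-32.

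The genes most like NNAT, by the distance over the pair of log2 ratios to the pool among 14695 genes bright on at least 1 array, were SLC38A5, LYPD1, LINC01798, ZIC2 and GPX7. SLC38A5, an amino acid transporter, was nearest at a distance of 0.62, at -4.44 in NGP and 3.49 in IMR-32, and GPX7, a peroxidase of the endoplasmic reticulum, was the fifth at 1.43. None of the 5 was on a list of imprinted genes used here. The genes most like DLK1 were UNC13A, VCAN, ZNF280C, CNTN1 and SNAP25, at distances of 0.13 to 0.20. UNC13A and SNAP25 encode proteins of synaptic vesicle release, CNTN1 a neuronal adhesion protein and VCAN a matrix proteoglycan. With 2 ratios per gene, such likeness is a description of 3 arrays.

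**Figure D4:**
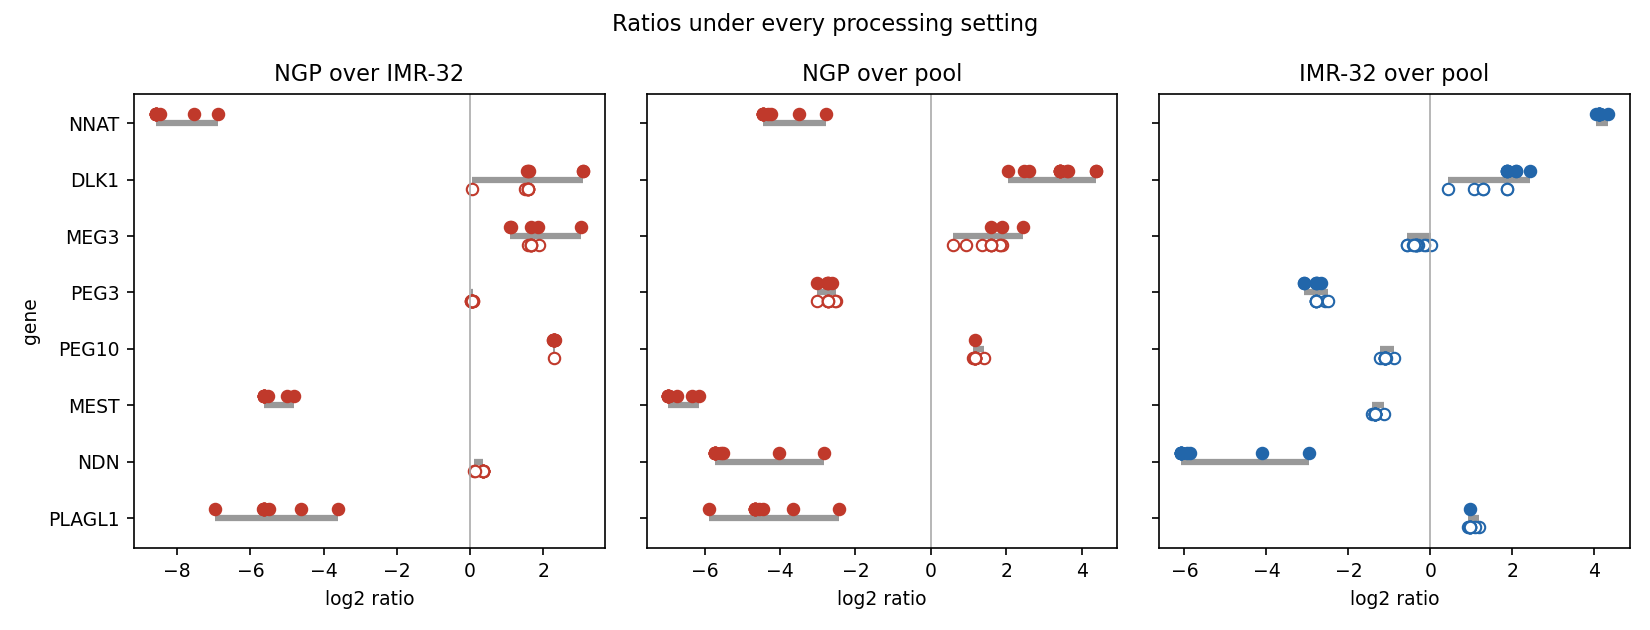
Log2 ratios (x-axis) of the 8 members (y-axis) under the setting used in the text and all alternatives, with filled circles (upper) where the gene was over- or underexpressed under that setting, open circles (lower) where it was not, and a grey bar over the range. NNAT and MEST kept their calls for NGP over IMR-32 and NGP over the pool throughout, while DLK1 and MEG3 were called for NGP over IMR-32 under some settings and not under others.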

How the data were processed

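NGP, IMR-32 and the pool were hybridized to 1 array each. Per the labels and methods, the authors obtained the signal intensity of every probe set with MAS5 in the Bioconductor package affy (version not given in the sources used here), scaled to a mean of 500 per array with 2% of signals trimmed at each end. The members and gene lists were chosen with earlier results of these data known.

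Probe sets naming 1 gene (41091) were kept, of which 41037 were matched by gene ID to RefSeq (GRCh38.p14) for current symbols. A further 1801 named several genes and 11721 none, and 62 control probe sets were left out. The value of a gene was the median log2 ratio of its probe sets. Genes in the top or bottom 7% were called, a rule the study applied to each line over the pool. The direct comparison of the lines and the medians over probe sets were added here. With 1 array per sample no test was possible, and the number of arrays limits the precision.

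The rule for named genes took the members, the listed imprinted genes past a cut-off with a probe set that was not dim, the genes keeping imprints, and the 5 genes nearest to NNAT and to DLK1. Neighbours of members outside it, such as BLCAP, SGCE, COPG2, CPA4, KLF14, MAGEL2, UBE3A, IGF2R, SNRPN, CDKN1C and PHLDA2, were named after their values were seen.

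There were 11 alternatives: centring on the median, quantile normalization, a constant of 32 added before log2, removal of dim probe sets, use of the brightest probe set or of the mean, removal of _s_at and _x_at probe sets, inclusion of shared ones, 5% or 10% in place of 7%, and cut-offs taken over all probe sets. A floor at the array median was added after seeing the data. Calculations were tested on simulated data and run in Python 3.11.15 with numpy 2.4.6, pandas 2.3.3 and matplotlib 3.10.9.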

Additional observations from a re-analysis of the deposited data

Results flagged for a closer look

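Ratios over the pool of opposite sign in the lines were found for 4 members, and the difference was not tested. NNAT had a log2 ratio of -4.45 in NGP and 4.11 in IMR-32, and PLAGL1 one of -4.67 in NGP and 0.97 in IMR-32. In the other direction, MEG3 was at 1.60 in NGP and -0.34 in IMR-32, and PEG10 at 1.18 in NGP and -1.11 in IMR-32. The IMR-32 values of PLAGL1, MEG3 and PEG10 were smaller in size than the spread between probe sets of a gene (1.31). So was the NGP value of PEG10 (spread of 1.41). These values, and that of MEG3 in NGP, were inside the cut-offs of the setting used in the text. The MEG3 value of IMR-32 ranged over the alternatives from -0.57 without dim probe sets to 0.02 with quantile normalization.

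Signals above the pool were also found in probe sets that the main ratios do not use, because they name another gene too. In NGP they gave log2 ratios of 3.23 for H19 and 1.14 for IGF2 over the pool. With shared probe sets added, the cut-off was 1.81, which H19 passed and IGF2 did not.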

How the results depend on the processing

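Of the counts of genes past a cut-off, 109 values stayed within 1.5 times the count in the text and 35 moved further. For the members in NGP over IMR-32, 3 rather than 1 were overexpressed with log2(signal + 32), without dim probe sets, with the brightest probe set, with shared probe sets, at 10% and with dim signals raised to the array median (a floor chosen after seeing the data), and 0 with cut-offs over all probe sets. Underexpressed members there numbered 1 rather than 3 without _s_at and _x_at probe sets, which leave NNAT and PLAGL1 unmeasured. In NGP over the pool, 2 members rather than 1 were overexpressed without dim probe sets, with the brightest probe set, with shared probe sets, at 10% and with the floor. In IMR-32 over the pool, overexpressed members numbered 1 rather than 2 with log2(signal + 32), without dim, with the brightest, without _s_at and _x_at probe sets, at 5% and with cut-offs over all probe sets. With the floor their number stayed the same, but DLK1 lost its call and PLAGL1 gained one. Underexpressed members there numbered 2 rather than 1 with quantile normalization, log2(signal + 32), the brightest probe set, no _s_at and _x_at probe sets, 10% and the floor, and 3 with shared probe sets. Of the other imprinted genes, the floor left 1 overexpressed and 3 underexpressed in NGP over IMR-32. In NGP over the pool, the cut-offs over all probe sets left 1 overexpressed, and 4 were underexpressed with log2(signal + 32) and 3 with the floor. In IMR-32 over the pool, 1 was overexpressed without _s_at and _x_at probe sets, and 6 were underexpressed without dim probe sets, 7 with the brightest and 8 at 10%. Of single genes, NLRP2 was underexpressed for NGP over IMR-32 and changed sign, to 0.14, with the floor, which sets both of its dim signals. Other genes changed sign in that comparison too. PHLDA2 went from 0.81 to -3.31, past the lower cut-off, with the brightest probe set. With the floor, ASCL2 went from -0.70 to 0.14 and COPG2 from -0.50 to 0.28, both inside the cut-offs. The cause of the other moves was not tested. NNAT kept its call under all 11 alternatives that measured it in each comparison, and MEST under all 12. Ratios from dim signals limit the size of a difference. No paired analysis was possible because each sample had 1 array.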

Other observations

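SNRPN, the splicing protein gene at the centre of the Prader-Willi region on chromosome 15, had 1 probe set of its own, dim on all arrays (85.3 in NGP, 40.1 in IMR-32 and 37.5 in the pool). The brightest probe set shared with SNURF, from the same transcript, had signals of 9411 in NGP, 8993 in IMR-32 and 8829 in the pool, and log2 ratios of 0.07 for NGP over IMR-32 and 0.09 for NGP over the pool. That probe set was bright on all 3 arrays, where NDN on the same chromosome was dim in both lines. CDKN1C, the growth-restraining kinase inhibitor of the 11p imprinted region, had a ratio of 0.11 for NGP over IMR-32, with signals of 791 in NGP, 731 in IMR-32 and 344 in the pool on its brightest probe set, where H19 and IGF2 differed widely. PHLDA2, a placental growth gene of the same region, had signals of 7.42 in NGP, 73.7 in IMR-32 and 7446 in the pool on its brightest probe set. On that probe set alone it was underexpressed over the pool in both lines (-9.97 in NGP and -6.66 in IMR-32). Its other 2 probe sets had signals of at most 153 on any array, and its gene ratio over the pool was -1.03 in NGP and -2.34 in IMR-32, inside the cut-offs.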
